A study of Mus musculus with 6 samples.

Results

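Chemokine ligands and chemokine receptors were followed as 1 gene family in mouse bone marrow progenitors with and without Brd9. The members were every gene whose symbol was Ccl, Cxcl, Cx3cl, Xcl, Ccr, Cxcr, Xcr or Ackr followed by a number and at most 1 further letter. Of the 24411 genes in the files, 60 matched, 5 of these were set aside by the rule, Cxcl12 and Ccr3 among them, and 55 members were left, namely 37 ligands, 14 receptors and 4 atypical receptors. The choice used symbols alone and no measured value.

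Bulk RNA-seq was performed on 3 Brd9 KO libraries (Mx1-Cre Brd9fl/fl) and 3 control libraries (Brd9fl/fl), all from C57BL/6 CD45.2+ mice. Brd9 is a bromodomain protein of the non-canonical BAF chromatin remodelling complex, and Mx1-Cre is a recombinase driven by an interferon-responsive promoter, which acts in hematopoietic cells and in other cells as well. Both groups received pIpC, a double-stranded RNA mimic that switches Mx1-Cre on, at 20 mg/kg in 3 doses, from 4 weeks of age per the series design, and cells were taken 8 weeks later. The labels name lineage-negative cells of femora and tibiae, the study's methods add sorting for c-Kit, and the labels' protocol speaks of transplant recipients where the series design speaks of primary mice. Since no control carried Cre, its own effect and that of Brd9 loss cannot be told apart. The study's text and the series design also differ on how old the mice were. The study calls the replicates biological, while nothing in the labels ties a library to an animal, so each p-value covers the spread among these 6 libraries, whatever its source. In bulk RNA, fewer cells of a type and less RNA per cell cannot be told apart.

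Chemokines are small secreted or membrane-tethered proteins that steer leukocytes along gradients. They bind G protein-coupled receptors, which signal through Gi proteins to integrins and the cytoskeleton, and the atypical receptors bind ligands without that signal and remove or carry them. In the marrow the family is known for holding progenitors in their niche and for releasing neutrophils and monocytes to the blood. Many inflammatory ligands sit in tandem gene clusters and are made by myeloid cells themselves, and Ccl3, Ccl6 and Ccl9 are ligands of Ccr1 in the mouse.

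Levels are given as CPM, counts per 1000000 reads after TMM scaling, which corrects each library total for its composition. TPM, which also corrects for transcript length, is used to compare 1 gene with another. A gene was tested where its CPM before TMM scaling reached about 0.404 in at least 3 libraries, and it was called where edgeR's quasi-likelihood test, adjusted by Benjamini-Hochberg over all genes tested, gave an adjusted p under 0.1. Fold changes are on the log2 scale, Brd9 KO over control, with the standard error (SE). Expected counts summed to 21151031 to 25526248 in Brd9 KO libraries and to 23915415 to 28500168 in control libraries. Brd9 itself stood at 15.6, 13.5 and 21.03 CPM in Brd9 KO libraries and at 45.9, 49.1 and 52.1 CPM in control libraries (log2 fold change -1.56 ± 0.17, adjusted p = 0.00345, edgeR). The second principal component (28.3% of the variance) set Brd9 KO replicate 3 apart, and the summed level of 10 neutrophil marker genes, S100a8 and S100a9 among them, was 1198.5, 1356 and 7891 CPM in the Brd9 KO libraries, against 1736 to 3224 CPM in control libraries. Log2 fold changes of members that depend on this library are given without it as well. Sums and medians are given with all 6 libraries alone. Whether mature cells in Brd9 KO replicate 3 account for a value was not tested. The progenitor genes Kit, Cd34, Flt3 and Myb were present in every library, as the labelled cell type calls for, although genes of mature cells were present too. The 8 progenitor markers summed to 2353, 2264 and 2206 CPM in Brd9 KO and to 1657 to 1804 CPM in control, with 2 called, both higher. Whether this bears on any member was not tested.

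Of the 55 members, 22 passed the expression filter, 13 ligands, 8 receptors and the atypical receptor Ackr1. The other 33 did not, of which 10 had no read in any library, 10 had between 1 and 10 expected reads over all libraries, and 13 had more. Of the 22 tested members, 6 were called, 4 higher in Brd9 KO, Ccr1, Cxcl14 and Cx3cl1 among them, and 2 lower, Ccl9 and Cxcl2. That is 27.3% of the tested members, where 15.4% of all 12953 genes tested were called, 9.19% higher and 6.25% lower (1190 and 809 genes, or 1402 and 489 when scaled by library total alone). However, 3 of the 6 passed the filter through 1 group alone, Cxcl14 and Cx3cl1 through the Brd9 KO libraries and Cxcl2 through the control libraries, so that they had to differ. Among the other 19 members 3 were called, or 15.8%, beside 14.7% of the 12802 genes that did not pass through 1 group alone. In the same way the groups did not overlap in 10 of 22 tested members (5 above control, Ccr1, Cxcl14, Cx3cl1 and Cxcl5 among them, and 5 below, Ccl9, Cxcl2, Cxcr6, Ccr9 and Ccl25), or 45.5%, against 33.5% of all genes tested, and in 7 of the other 19, or 36.8%, against 32.8% of the 12802 genes. With all 6 libraries the median log2 fold change of the 22 tested members was 0.15, beside 0.02 over all genes. It was not computed without Brd9 KO replicate 3, where Ccl6, Ccl27a, Ccr10, Cxcr2 and Cxcr3 changed from above to below 0.

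**Figure D1:**
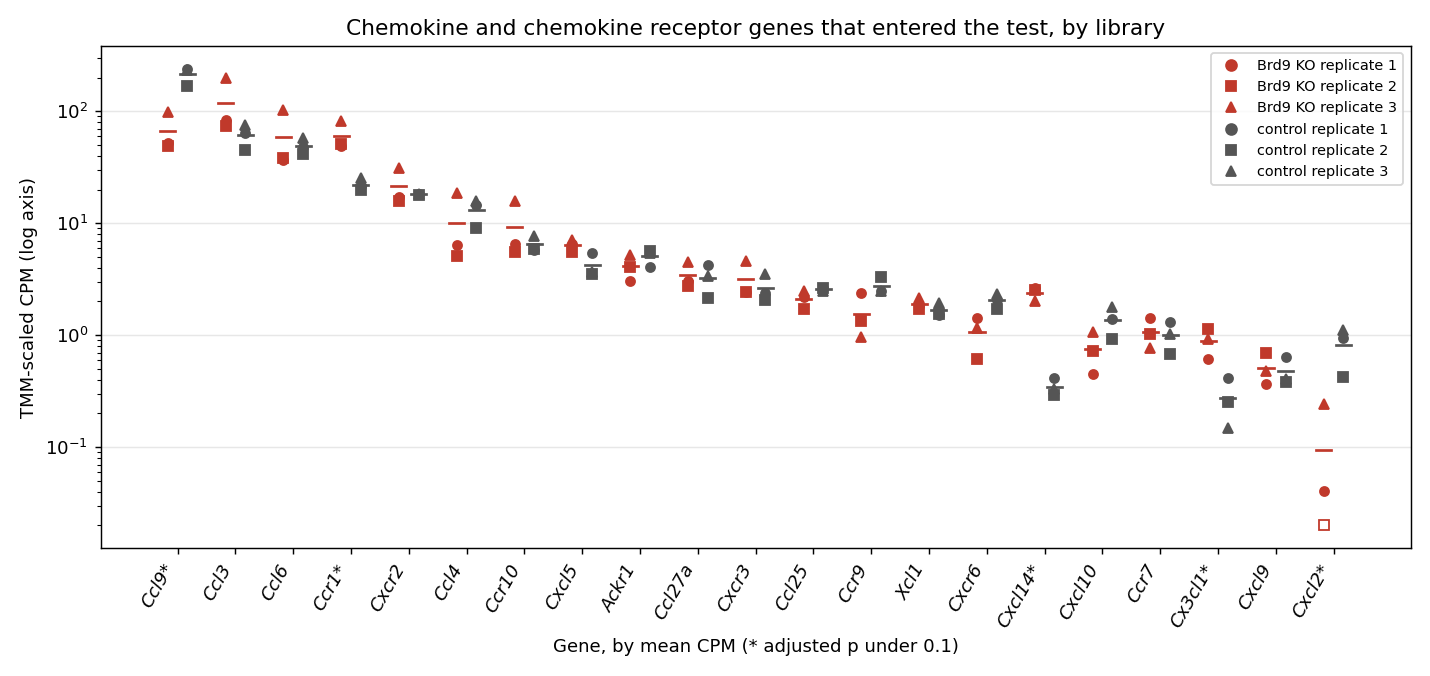
TMM-scaled CPM (log axis) of 21 tested members in each library, Brd9 KO in red left of control in grey, with the marker shape giving the replicate and a bar the group mean; the open square is Cxcl2 at 0 in Brd9 KO replicate 2, drawn at the bottom of the axis. Ccl9 and Ccr1 were separated between the groups in opposite directions, and 10 of the 21 genes were highest in Brd9 KO replicate 3.

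The member ligands were led by 4 genes that lie in 1 cluster on chromosome 11. Ccl9, Ccl6 and Ccl3 on the minus strand and Ccl4 on the plus strand occupy 91.8 kb (GRCm38, chr11:83572919-83664683), and all 4 encode CC chemokines of myeloid cells. By TPM, Ccl3 was the most abundant member, with a mean of 273 ± 116 TPM in Brd9 KO and 126 ± 31.04 TPM in control (SD, n = 3 each). The platelet chemokines Pf4 and Ppbp, which the symbol rule missed, were higher. Pf4 averaged 3546 TPM in Brd9 KO and 1017 TPM in control, and Ppbp 1111 TPM in Brd9 KO and 712 TPM in control. Ccl9 averaged 32.3 ± 8.19 TPM in Brd9 KO and 92.6 ± 12.96 TPM in control, Ccl6 64.6 ± 31.03 TPM in Brd9 KO and 48.4 ± 9.17 TPM in control, and Ccl4 29.1 ± 16.97 TPM in Brd9 KO and 34.6 ± 8.87 TPM in control. Among the 4, the order by mean TPM was therefore Ccl3, Ccl6, Ccl9 and Ccl4 in Brd9 KO, against Ccl3, Ccl9, Ccl6 and Ccl4 in control. The exchange of Ccl6 and Ccl9 held in each library, with Ccl6 at 1.63 to 2.40 times the TPM of Ccl9 in Brd9 KO and at 0.451 to 0.564 times in control, whereas Ccl9 and Ccl4 differed by less than either SD in Brd9 KO.

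Ccl9 (chr11:83572919-83578636, 5 exons), also called MIP-1 gamma, fell in Brd9 KO cells. It stood at 51.7, 49.0 and 97.8 CPM in the Brd9 KO libraries and at 239.6, 169 and 236 CPM in the control libraries. Every Brd9 KO library was below every control library, with Brd9 KO replicate 3 the nearest to them. The log2 fold change was -1.70 ± 0.28, or 30.8% of the control level (adjusted p = 0.0143, edgeR). Without Brd9 KO replicate 3 it was -2.09 (adjusted p = 0.00055). Ccl9 was called under each of the 18 alternatives, with log2 fold changes of -2.09 to -1.51. The summed level of 8 monocyte marker genes, which include Ly6c2 and Csf1r, was 1011, 1005 and 1802 CPM in Brd9 KO and 2022 to 2526 CPM in control, none of these markers was at 0 in all libraries, and 2 of the 8 were called, both lower (F13a1 -2.18 and Cd14 -1.83). Whether this bears on Ccl9 was not tested, and the other myeloid lists, given below beside Ccr1, did not all move this way.

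The neighbours of Ccl9 were not called with all libraries. Ccl3, or MIP-1 alpha, a ligand of Ccr1, stood at 82.9, 74.5 and 199.99 CPM in Brd9 KO and at 63.4, 45.0 and 75.0 CPM in control. Its groups overlapped, since Brd9 KO replicate 2 was below control replicate 3, and its highest value was in Brd9 KO replicate 3. The log2 fold change of 0.96 ± 0.38 did not pass (adjusted p = 0.151, edgeR). It passed under 4 alternatives and reached an adjusted p of 0.0474 with DESeq2, but without Brd9 KO replicate 3 it was 0.36 (adjusted p = 0.199, edgeR). Ccl6, a ligand of Ccr1 known in rodents, had 37.0, 37.9 and 103 CPM in Brd9 KO and 47.6, 41.8 and 57.3 CPM in control. Here the direction rested on 1 library, with a log2 fold change of 0.28 (adjusted p = 0.666) over all libraries and of -0.39 (adjusted p = 0.088) without Brd9 KO replicate 3.

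Ccl4, or MIP-1 beta, a chemoattractant for T cells and monocytes, showed the same arrangement of libraries as Ccl6. It stood at 6.38, 5.13 and 18.7 CPM in Brd9 KO and at 14.4, 9.02 and 15.9 CPM in control, so that Brd9 KO replicates 1 and 2 were below each control library and Brd9 KO replicate 3 above each. The log2 fold change was -0.39 (adjusted p = 0.616) with all libraries and -1.19 (adjusted p = 0.0221) without Brd9 KO replicate 3.

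Ratios between neighbours inside 1 library do not depend on library scaling, and 2 such ratios were computed after the values above had been seen. For each read of Ccl4 there were 12.99, 14.5 and 10.7 reads of Ccl3 in the Brd9 KO libraries and 4.40, 4.99 and 4.70 in the control libraries. The ratio was thus 2.71-fold higher in Brd9 KO, and Brd9 KO replicate 3, in which both genes were high, lay with its group. The Ccl6 to Ccl9 ratio was 0.716, 0.774 and 1.06 in Brd9 KO and 0.199, 0.248 and 0.243 in control, a 3.69-fold difference. For both ratios an exact two-sided permutation test gave p = 0.1, the smallest that 3 libraries against 3 allow, and TPM gave the same folds to 3 digits. Of the 231 ratios that the 22 tested members can form, 131, or 56.7%, did not overlap between the groups, so that separation alone is common, and the 2 ratios are shown for their size and for their neighbouring genes.

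**Figure D2:**
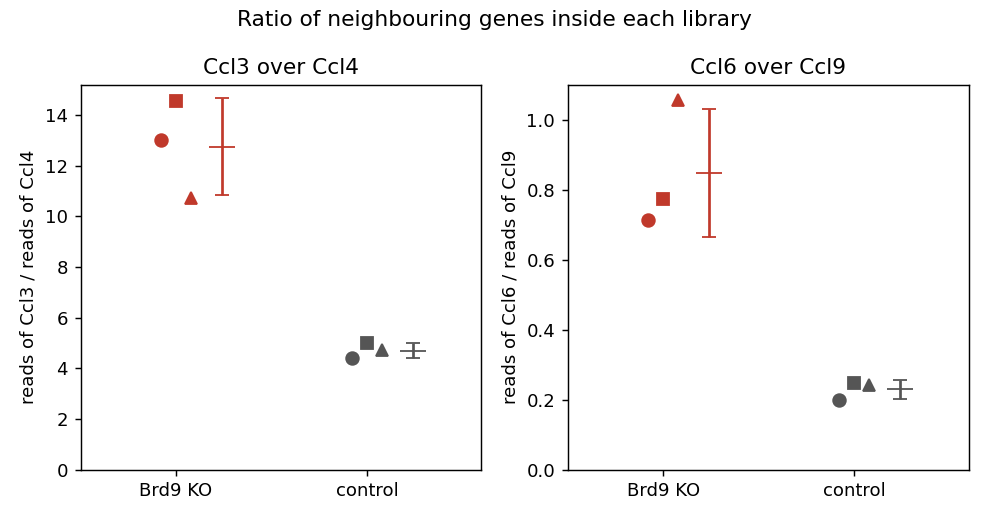
Reads of Ccl3 per read of Ccl4 (left) and of Ccl6 per read of Ccl9 (right) in each library, Brd9 KO left of control; shapes give the replicate, and the bar beside the points is the mean with its SD (n = 3). The Brd9 KO libraries lie between 10.7 and 14.5 on the left and between 0.716 and 1.06 on the right, above all control libraries.

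Cxcl14, a CXC chemokine made by epithelial and stromal cells, had the largest rise among the tested members. Its expected reads were 64, 70 and 42 in the Brd9 KO libraries and 11, 7 and 9 in the control libraries, or 2.62, 2.55 and 2.03 CPM and 0.416, 0.295 and 0.331 CPM. The values within each group were close together and the groups were far apart. The log2 fold change was 2.77 ± 0.29, or 6.81-fold (adjusted p = 0.00323, edgeR), and it was 2.87 without Brd9 KO replicate 3. Cxcl14 was called under all 18 alternatives, but it passed the filter through the Brd9 KO libraries alone and had to differ. Its calls are therefore a description and no support of their own. Cxcl14 (chr13:56288643-56296551) shared no 31-base stretch with another annotated transcript. Cx3cl1, or fractalkine, a membrane-bound ligand of Cx3cr1 made by endothelial and stromal cells, had 15, 31 and 19 reads in Brd9 KO and 11, 6 and 4 reads in control. The lowest Brd9 KO value, 0.614 CPM, lay above the highest control value, 0.416 CPM, which was under the filter limit before TMM scaling. Its log2 fold change was 1.69 ± 0.45 (adjusted p = 0.0592, edgeR), and the call was lost under 5 of 17 alternatives, when Brd9 KO replicate 1 or 2 or control replicate 2 or 3 was left out and at a threshold of 0.05.

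The summed level of 12 mesenchymal stroma markers, Lepr, Adipoq and Kitl among them, was 89.2, 102 and 59.0 CPM in Brd9 KO and 28.5 to 42.4 CPM in control, and 9 of the 11 tested were called, all higher. Of these 9, however, Col3a1, Pdgfra, Dcn and Cdh11 passed the filter through the Brd9 KO libraries alone and had to differ, and 5 of the other 7 were called. The 10 endothelial markers summed to 221, 207 and 187 CPM in Brd9 KO and to 134 to 151 CPM in control, with 6 called higher, Pecam1, Kdr and Cdh5 among them, and 1 of the 6, Cldn5, passing through the Brd9 KO libraries alone. Most of this sum was Pecam1, which hematopoietic progenitors and platelets also express, and the other 9 markers summed to 32.3, 35.2 and 28.7 CPM in Brd9 KO and to 22.8 to 25.9 CPM in control. No marker of either list was at 0 in all libraries. Their part in the values of Cxcl14 and Cx3cl1 was not tested.

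Cxcl2, a ligand of Cxcr2 that draws neutrophils, was close to the limit of detection in Brd9 KO cells. It had 1, 0 and 5 reads in the Brd9 KO libraries and 25, 10 and 30 reads in the control libraries, and 3 reads, the level taken here as the floor of detection in 1 library, correspond to 0.109 to 0.145 CPM. Brd9 KO replicates 1 and 2 were therefore below the floor and each control library above it. The fitted log2 fold change of -3.23 ± 0.81 (adjusted p = 0.0513, edgeR) depends on the prior count used for such low values. The call was lost under 5 of 17 alternatives, at a threshold of 0.05 and on removal of Brd9 KO replicate 1 or 2 or control replicate 1 or 3, while on removal of Brd9 KO replicate 3 the value was -5.12 (adjusted p = 0.0113). Cxcl2 (chr5:90903871-90905938) shared 7.59% of its 31-base stretches with Cxcl3, which lies in the same cluster. The expected counts of both were whole in every library, so they show no split reads. Cxcl3 itself had 7, 3 and 3 reads in Brd9 KO and 9, 7 and 9 in control. In CPM the Cxcl3 groups were just apart, although Brd9 KO replicate 1 and control replicate 2 both had 7 reads. Cxcl5, a further ligand of Cxcr2 in the same cluster, had 6.55, 5.53 and 7.04 CPM in Brd9 KO and 5.41, 3.54 and 3.68 CPM in control, groups that did not overlap, with a log2 fold change of 0.59 that did not pass (adjusted p = 0.141, edgeR). Cxcl1, also of this cluster, had 0, 1 and 3 reads in Brd9 KO and none in control, and Cxcl15 had none at all.

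The remaining ligands that were tested did not pass. Cxcl10 and Cxcl9, interferon-induced ligands of Cxcr3, had log2 fold changes of -0.90 and 0.12. Cxcl10 stood at 0.450, 0.728 and 1.06 CPM in Brd9 KO and at 1.40, 0.928 and 1.80 CPM in control, with 1 Brd9 KO library inside the control range. It was called without Brd9 KO replicate 3 (-1.22, adjusted p = 0.0726, edgeR), and Cxcl9 stood at 0.368, 0.691 and 0.482 CPM in Brd9 KO and at 0.643, 0.380 and 0.405 CPM in control, at the edge of the filter. Ccl25, the ligand of Ccr9, and Xcl1, the ligand of Xcr1, had log2 fold changes of -0.28 and 0.18. Ccl25 had 2.21, 1.71 and 2.46 CPM in Brd9 KO and 2.65, 2.61 and 2.47 CPM in control, so that the groups were barely apart. Ccl27a, a ligand of Ccr10 known from skin, had a log2 fold change of 0.07, but it shared 57% of its 31-base stretches with other transcripts and its expected count was not whole in 5 libraries, so its level is uncertain. Over the 37 member ligands the levels summed to 197, 185 and 443 CPM in Brd9 KO and 385, 278 and 401 CPM in control. The overlap rests on Brd9 KO replicate 3, and ligands outside the members, such as Pf4 and Ppbp, are not counted. Of this sum, Ccl9 alone gave 51.7, 49.0 and 97.8 CPM in Brd9 KO and 239.6, 169 and 236 CPM in control.

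The sequences just before the gene start are shown for the most clearly lowered ligand and for Cxcl2, the other ligand that was lower, beside those of Ccr1 and Cxcl14, the most clearly raised receptor and ligand, since the genes of each pair moved the same way. They are the 200 bases that precede both the RefSeq and the GENCODE start (RefSeq, GRCm38.p6, 5′ to 3′ on the gene's own strand). Capitals mark matches on either strand to 5 motifs, the TATA box (TATAAA), an NF-kB site (GGGNN directly followed by TTNCC), an AP-1 site (TGANTCA), a PU.1 site (GAGGAAG) and the CCAAT box (CCAAT), chosen after the calls were known. In Ccl9, matches to TATAAA on opposite strands overlap in 1 run of capitals, and the match to TGANTCA reads as a match on both strands.
Ccl9, chr11:83578637-83578836, minus strand: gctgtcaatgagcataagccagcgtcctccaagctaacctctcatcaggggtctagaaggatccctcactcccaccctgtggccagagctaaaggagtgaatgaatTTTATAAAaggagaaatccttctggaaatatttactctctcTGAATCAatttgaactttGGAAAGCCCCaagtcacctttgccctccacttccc
Cxcl2, chr5:90903671-90903870, plus strand: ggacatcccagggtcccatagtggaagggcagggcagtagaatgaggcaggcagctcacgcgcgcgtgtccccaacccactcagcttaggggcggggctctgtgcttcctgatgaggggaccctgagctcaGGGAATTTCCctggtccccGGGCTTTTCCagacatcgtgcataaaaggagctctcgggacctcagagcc
Ccr1, chr9:123968693-123968892, minus strand: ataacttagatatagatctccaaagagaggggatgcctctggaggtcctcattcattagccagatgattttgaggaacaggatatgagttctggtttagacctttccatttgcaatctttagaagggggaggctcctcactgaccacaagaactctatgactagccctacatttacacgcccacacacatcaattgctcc
Cxcl14, chr13:56296552-56296751, minus strand: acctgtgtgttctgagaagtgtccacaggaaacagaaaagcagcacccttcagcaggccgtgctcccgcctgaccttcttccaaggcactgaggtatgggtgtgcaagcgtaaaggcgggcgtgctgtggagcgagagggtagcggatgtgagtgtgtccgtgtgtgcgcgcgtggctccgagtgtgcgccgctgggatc

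Ccl9 held 1 match to the NF-kB letters, 35 bases before the end of the window, and Cxcl2 held 2, at 69 and 50 bases, whereas the windows of Ccr1 and Cxcl14 held no match to any of the 5 motifs. Over the 250 bases before the RefSeq start, 40 of the 55 members had a sequence, and 8 of these held the NF-kB letters, namely Ccl9, Ccl19, Ccl20, Cxcl1, Cxcl2, Cxcl3, Cxcl9 and Cxcl10. In the same window of all 27025 promoters, 4.02% held them. The 2 lowered members both held a match, and of the 4 raised members the 3 with a sequence (Ccr1, Cxcl14 and Cx3cl1) held none. Of the 17 tested members with a sequence, 4 held a match, and Cxcl9 (log2 fold change 0.12) and Cxcl10 (-0.90) among them were not called. Whether these letters bear on any change was not tested. TATAAA was found in 11 of the 40 members and in 13% of all promoters, TGANTCA in 3 and 6.85%, GAGGAAG in 6 and 10.4%, and CCAAT in 11 and 34.5%. A match to a few letters describes the sequence and is not a site, and several members come from tandem copies and share sequence.

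Among the tested member receptors, Ccr1 rose the most. Ccr1 (chr9:123962124-123968692, minus strand, 2 exons), the receptor for Ccl3, Ccl6 and Ccl9 on myeloid cells, stood at 48.7, 51.5 and 81.5 CPM in the Brd9 KO libraries and at 21.4, 19.6 and 25.4 CPM in the control libraries. Every Brd9 KO library was above every control library, and Brd9 KO replicate 3 was the highest. The log2 fold change was 1.45 ± 0.21, or 2.73-fold (adjusted p = 0.00897, edgeR), and it was 1.18 (adjusted p = 0.00163) without Brd9 KO replicate 3. Ccr1 was called under all 18 alternatives, with log2 fold changes of 1.18 to 1.63. Thus the receptor was higher while Ccl9, 1 of its ligands, was lower in the same libraries. The 9 eosinophil markers, Prg2 and Il5ra among them, summed to 4462, 4402 and 8589 CPM in Brd9 KO and to 1945 to 2538 CPM in control, with 8 called higher and Epx lower, and the 11 macrophage markers summed to 110.5, 136 and 162 CPM in Brd9 KO and to 96.6 to 143 CPM in control, with 7 called higher, C1qa and Adgre1 among them, and Vcam1 lower (Mertk, 1 of the 7, passed the filter through the Brd9 KO libraries alone). Among other myeloid lists, the 8 basophil and mast cell markers summed to 3977, 3493 and 5320 CPM in Brd9 KO and to 2050 to 2671 CPM in control, with 6 called higher. The monocyte markers given above were lower in sum, and the neutrophil markers overlapped between the groups. No marker of these lists was at 0 in all libraries, and the part of such cells in the level of Ccr1 was not tested.

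**Figure D3:**
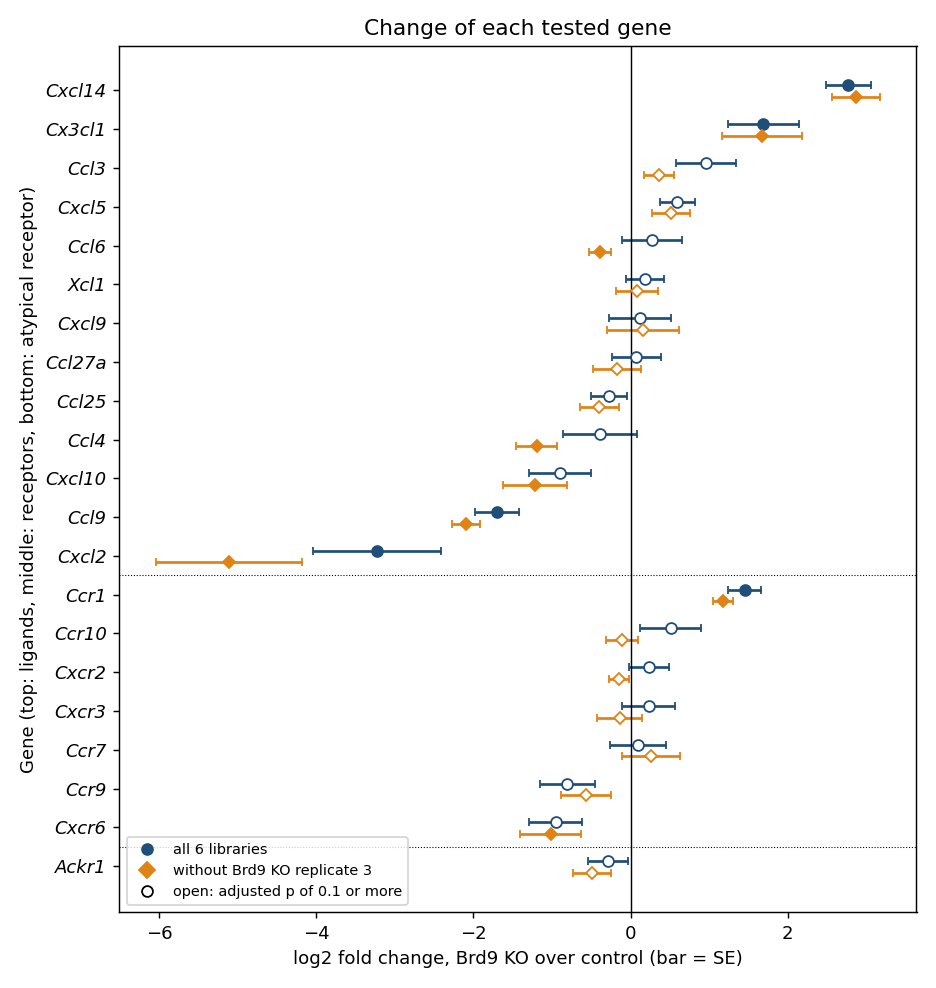
Fold change on the log2 scale (Brd9 KO over control, with its SE, horizontal axis) for 21 tested members, with ligands on top, receptors in the middle and the atypical receptor at the bottom. Circles use all 6 libraries and diamonds leave out Brd9 KO replicate 3, and filled symbols have an adjusted p under 0.1; Ccl6 lies at 0.28 with all libraries and at -0.39 without that library.

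The neutrophil receptor Cxcr2, which binds Cxcl1, Cxcl2, Cxcl3 and Cxcl5, stood at 17.1, 15.6 and 31.1 CPM in Brd9 KO and at 18.1, 17.8 and 18.3 CPM in control. Only Brd9 KO replicate 3, the library with the high neutrophil markers, was above control, and the log2 fold change was 0.23 over all libraries (adjusted p = 0.572, edgeR) and -0.14 without it. Ccr10, a receptor for Ccl27 and Ccl28, was also highest in Brd9 KO replicate 3, with 6.46, 5.53 and 15.7 CPM in Brd9 KO and 5.75, 5.95 and 7.69 CPM in control (0.51, and -0.11 without Brd9 KO replicate 3). Its Brd9 KO replicate 1 lay inside the control range and Brd9 KO replicate 2 just below it. Cxcr6 and Ccr9, both lymphoid receptors, had lower values in every Brd9 KO library than in any control library. Cxcr6, the receptor for Cxcl16 on NK and T cells, had 1.43, 0.618 and 1.16 CPM in Brd9 KO and 2.08, 1.73 and 2.36 CPM in control (log2 fold change -0.95, adjusted p = 0.122), and it was called under 3 alternatives. Ccr9, a receptor of thymus-seeding progenitors and plasmacytoid dendritic cells, had 2.37, 1.35 and 0.964 CPM in Brd9 KO and 2.46, 3.33 and 2.47 CPM in control (-0.81, adjusted p = 0.182), and 18.8% of its exon bases lie opposite another annotated transcript. Beside them, the 9 NK cell markers summed to 166, 157 and 221 CPM in Brd9 KO and to 266 to 335 CPM in control. Of these, 4 were called higher and Nkg7 lower, with a median log2 fold change of 0.88. The 9 T cell markers went the other way in sum, with 40.4, 35.0 and 50.5 CPM in Brd9 KO and 23.7 to 32.4 CPM in control, and 2 were called, both higher. The 8 plasmacytoid dendritic cell markers summed to 96.6, 78.4 and 129 CPM in Brd9 KO and to 124 to 165 CPM in control, with 3 called lower. The part of such cells was not tested.

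Cxcr3, a T and NK cell receptor, and Ccr7, the receptor that leads cells to lymph nodes, had log2 fold changes of 0.23 and 0.09 and did not pass. Over the 14 member receptors the levels summed to 85.2, 82.2 and 141 CPM in Brd9 KO and 56.2, 54.8 and 64.1 CPM in control. Of this sum, Ccr1 alone gave 48.7, 51.5 and 81.5 CPM in Brd9 KO and 21.4, 19.6 and 25.4 CPM in control, so the sum does not show a shift of all receptors. By TPM, Ccr1 was the most abundant member receptor in both groups, with 31.9 ± 4.95 TPM in Brd9 KO and 10.3 ± 1.78 TPM in control. Cx3cr1, a chemokine receptor that the symbol rule missed, averaged 12.2 TPM in Brd9 KO and 11.2 TPM in control. Ackr1 is an atypical receptor known on erythroid precursors and venules. It had 3.07, 4.07 and 5.26 CPM in Brd9 KO and 4.09, 5.69 and 5.37 CPM in control (-0.29, adjusted p = 0.479, edgeR). In GENCODE, 25.7% of its exon bases are shared with Cadm3 on the same strand. Its expected count was whole in every library, however, so the counts show no split reads.

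**Figure D4:**
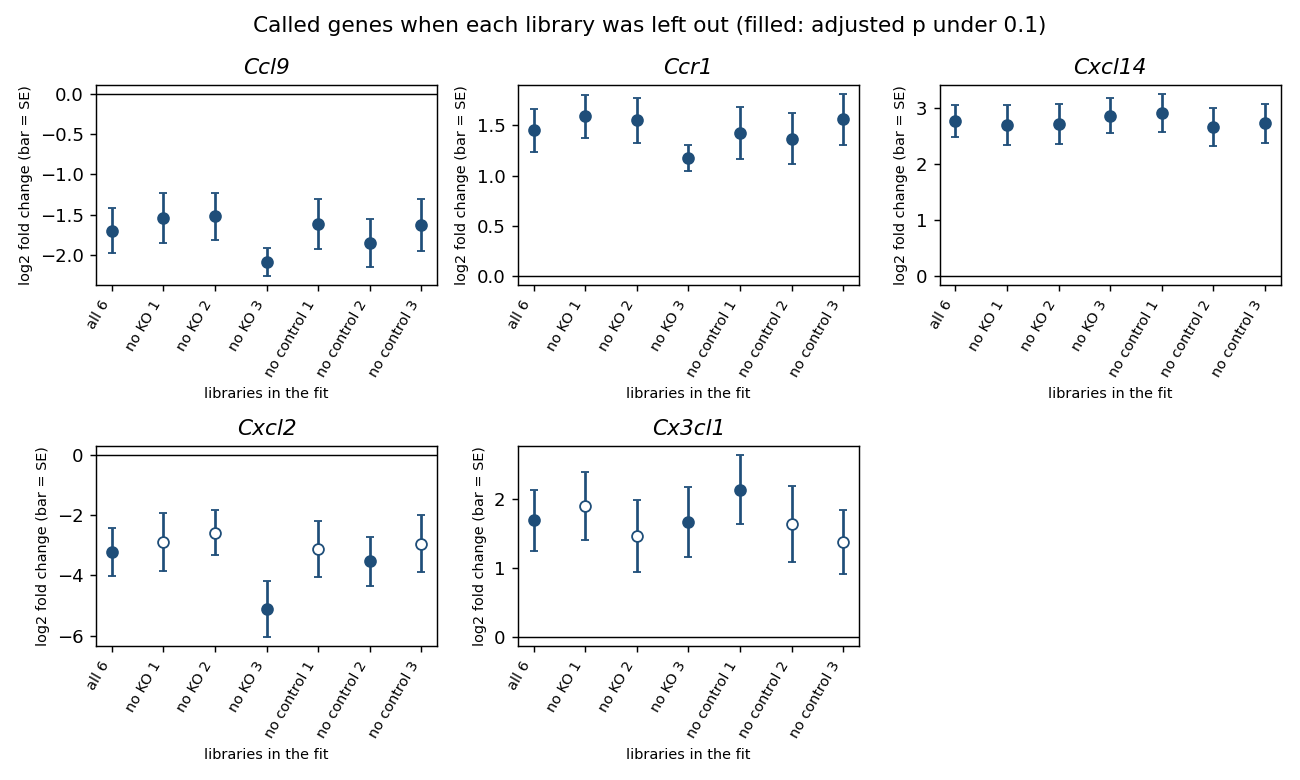
Log2 fold change (vertical axis, bar = SE) of 5 called members with all 6 libraries and with each library left out in turn; filled points have an adjusted p under 0.1. Ccl9, Ccr1 and Cxcl14 stayed filled throughout, and Cxcl2 and Cx3cl1 lost the call without 4 of the 6 libraries each.

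The number of members called followed the libraries used. Leaving out Brd9 KO replicate 1 or Brd9 KO replicate 2 left 3 of 23 tested members called, Ccl9, Ccr1 and Cxcl14. Over all genes, 641 of 13136 were called without Brd9 KO replicate 1 and 801 of 13082 without Brd9 KO replicate 2. Leaving out Brd9 KO replicate 3 gave 11 of 24 tested members, 5 higher and 6 lower, where 31.6% of all genes were then called. The additional calls were Ackr4, which was higher, and Ccl4, Ccl6, Cxcl10 and Cxcr6, which were lower. Leaving out control replicate 1, 2 or 3 gave 5 of 25, 4 of 26 and 4 of 25 members called. Over all genes these removals gave 1010 of 13144, 729 of 13177 and 917 of 13127, so the count of members moved with that of all genes.

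Ackr4, an atypical receptor that scavenges Ccl19, Ccl21 and Ccl25, did not enter the test with all libraries because it passed the limit in 2 of them. It had 18, 23 and 5 reads in the Brd9 KO libraries and 1, 2 and 4 reads in the control libraries. All Brd9 KO libraries were above control, although replicate 3 was so by 1 read. Without that replicate the log2 fold change was 3.06 (adjusted p = 0.0097, edgeR), but Ackr4 entered that test through Brd9 KO replicates 1 and 2 alone and had to differ, so the value is a description. At the limit, the members just inside by mean CPM were Cx3cl1, Cxcl9 and Cxcl2, and those just outside were Ackr4, Cxcl16 and Ackr3. Cxcl16, the ligand of Cxcr6, had 5, 12 and 11 reads in Brd9 KO and 9, 3 and 7 in control, and Ackr3, a scavenger of Cxcl12, had 11, 10 and 5 reads in Brd9 KO and 7, 6 and 6 in control. Both overlapped between the groups.

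Besides Ackr4 and Cxcl3, the groups did not overlap in 2 other untested members. The share over all untested genes was not computed, so this count has no background beside it. Ccl17, which lies 28.0 kb beyond Cx3cl1 on chromosome 8 and attracts T cells through Ccr4, had 10, 9 and 9 reads in Brd9 KO and 7, 4 and 4 in control. Ccl2, or MCP-1, which draws monocytes, had 5, 2 and 3 reads in Brd9 KO and 10, 9 and 11 in control. Thus Ccl2 and Cxcl2 had fewer reads in every Brd9 KO library than in any control library, at depths that allow no firm fold. Other inflammatory ligands did not all share this, since Cxcl5 was higher in every Brd9 KO library than in any control library. Xcr1, a receptor of conventional dendritic cells, reached 12 reads in control replicate 2 and 2 to 6 in the other libraries. The 10 members with no read at all were Ccl1, Ccl7, Ccl8, Ccl20, Ccl21a, Ccl21c, Ccl26, Cxcl11, Cxcl15 and Cxcl17, for which 0 reads allow a level of up to 0.109 to 0.145 CPM in a library, for counting error alone.

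**Figure D5:**
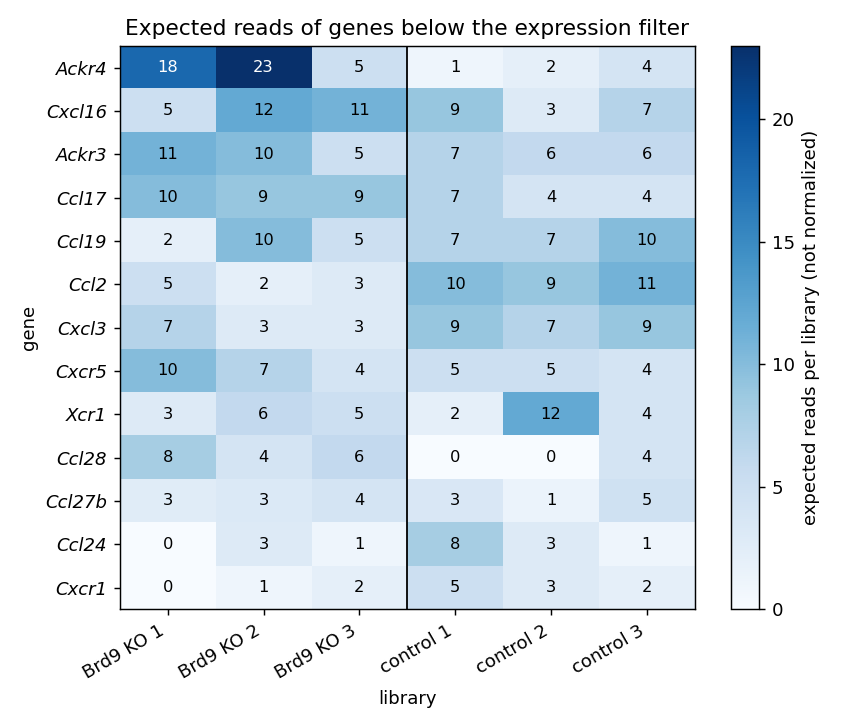
Expected reads, not normalized, in each library (columns, Brd9 KO left of the line and control right of it) for the 13 untested members with more than 10 reads in all (rows). Ackr4 reached 18 and 23 reads in Brd9 KO replicates 1 and 2 and at most 4 in control, and Ccl2 had 2 to 5 reads in Brd9 KO and 9 to 11 in control.

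Genes that act in the same system but carry other symbols were taken from 4 lists, in which 72 genes were tested, and 16 were called higher and 2 lower, beside 9.19% and 6.25% over all genes. Of 8 tested chemokine and chemoattractant genes outside the symbol rule, 3 rose and 1 fell, with a median log2 fold change of 0.27. Pf4, the platelet chemokine also called Cxcl4, stood at 1099, 793 and 1010.0 CPM in Brd9 KO and at 520.0, 228 and 254 CPM in control (1.53 ± 0.31, adjusted p = 0.0284, edgeR), while Ppbp, the platelet chemokine also called Cxcl7, had a log2 fold change of 0.37 that did not pass. The 9 megakaryocyte and platelet markers, Itga2b and Vwf among them, summed to 3522, 2753 and 2455 CPM in Brd9 KO and to 1235 to 1933 CPM in control, with 5 called higher, and their part in Pf4 was not tested. Rarres2, which encodes the chemoattractant chemerin, and its receptor Cmklr1 both rose, by 2.53 and 1.76, and Mif, a cytokine that binds Cxcr2 and Cxcr4, fell by 0.74 on the log2 scale. Rarres2 had 16, 17 and 12 reads in Brd9 KO and 3, 1 and 4 reads in control, and it passed the filter through the Brd9 KO libraries alone, so that it had to differ. Cx3cr1, the receptor of Cx3cl1, had a log2 fold change of -0.09 and did not pass.

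Receptors for other chemoattractants showed 4 rises and no fall among 12 tested (median 0.39). C3ar1, the receptor for complement fragment C3a, had 8.02, 6.80 and 11.8 CPM in Brd9 KO and 1.74, 2.78 and 2.43 CPM in control (1.93 ± 0.28, adjusted p = 0.00877, edgeR). Hrh4, a histamine receptor, Ptafr, the platelet-activating factor receptor, and Ltb4r2, a leukotriene receptor, rose by 1.498, 1.28 and 1.23 on the log2 scale.

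Among 37 tested genes of chemokine receptor signalling, 8 rose and 1 fell (median 0.19). The risers were the regulators of G protein signalling Rgs14 and Rgs18, the phosphoinositide 3-kinase subunit Pik3cg, the phospholipases Plcb2 and Plcb3, the receptor kinase Adrbk2 and the arrestins Arrb1 and Arrb2, with log2 fold changes of 0.32 to 0.79. Rgs1, which damps chemokine receptor signalling in leukocytes, had 9.98, 10.1 and 12.8 CPM in Brd9 KO and 24.5, 17.8 and 22.3 CPM in control (-0.98 ± 0.17). Of 15 tested NF-kB factors and inhibitors, only Tnfaip3, an inhibitor of the pathway, was called, and it rose by 0.47 (adjusted p = 0.0484, edgeR), with a median of 0.18 for the list. The share called in these lists together moved with the libraries, with 30 of 72 called when Brd9 KO replicate 3 was left out, 7 and 11 when Brd9 KO replicate 1 or 2 was, and 11, 9 and 10 when control replicate 1, 2 or 3 was. Calls over all genes, given above for each removal, likewise rose without Brd9 KO replicate 3 and fell on every other removal.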

How the data were processed

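Poly(A)-selected RNA was sequenced in 6 libraries, grouped by sample title. The authors aligned to mm10 and quantified genes with STAR and RSEM (nf-core), and the deposited tables hold expected counts, which are RSEM's estimated counts and can be fractional, and the authors' TPM. Deposited effective lengths were not used. Labels and methods disagree on whether the kit kept strand, which leaves genes opposite an antisense gene uncertain. Expected counts were rounded and compared with edgeR 4.0.16 in R 4.3.3 (filterByExpr with a minimum count of 10, TMM, quasi-likelihood test, no covariate) at the study's threshold of 0.1. DESeq2 1.42.0, limma-voom and limma 3.58.1 served as alternatives, as did other scalings and filters, a replicate block and the removal of each library. The study's independent hypothesis weighting was not run. Ratios were compared with exact permutation tests. The procedure was tested on simulated data. Positions came from GENCODE (53 of 55 members) and promoters from RefSeq. Members, lists, motifs and ratios were chosen with earlier results of these data known. Named are called members, the 12 most abundant tested members, members beside the expression limit, untested members reaching 0.5 CPM, and up to 4 called genes per list; the rest were named after their values were seen. A member counted here is not reported by name.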

Additional observations from a re-analysis of the deposited data

How the results depend on the processing

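Of the 6 members called, Ccl9, Ccr1 and Cxcl14 were called under each of the 18 alternatives, while Cx3cl1 and Cxcl2 were not. Cxcl14, Cx3cl1 and Cxcl2 had passed the main filter through 1 group alone and had to differ. The number of called members was 3 with a mean of at least 1 CPM required and 3 at an adjusted p under 0.05, 9 with DESeq2, 8 with log2(TPM + 1), and 3 to 11 when single libraries were left out. Over all genes, 1999 were called, 1015 at an adjusted p under 0.05, 1225 with a change of over 1.5-fold as well, and 641 to 4150 when single libraries were left out; for the other genes of the chemokine system the count was 18, and 7 to 30. Of these calls 59.5% were higher, against 74.1% with the library total alone, 83.3% with log2(TPM + 1) and 84.0% with log2(TPM + 0.1). These 3 settings moved the median log2 fold change of all genes to 0.10, 0.18 and 0.22, against 0.02, and no tested member changed sign under them. Members that were not called changed sign when a library was left out. The log2 fold changes then ran from -0.17 to 0.33 for Ccr7 (below 0 without Brd9 KO replicate 1, and at -0.13 without control replicate 2), from -0.18 to 0.39 for Cxcl9 (below 0 without Brd9 KO replicate 2, and at -0.02 without control replicate 2) and from -0.18 to 0.31 for Ccl27a (below 0 without Brd9 KO replicate 3, and at -0.16 without control replicate 2). They ran from -0.39 to 0.53 for Ccl6, -0.11 to 0.78 for Ccr10, -0.14 to 0.41 for Cxcr2 and -0.14 to 0.49 for Cxcr3, each below 0 without Brd9 KO replicate 3. The cause was not tested. The replicate numbers did not pair the libraries (correlations of -0.10, 0.61 and 0.01 between same-numbered libraries), and with the replicate number as a block 7 members and 2077 genes were called. The ratios of neighbouring genes, taken from TPM or with each library left out, all of these alternatives chosen after seeing the data, kept their direction, with log2 differences of 1.33 to 1.55 for Ccl3 over Ccl4 and 1.70 to 1.98 for Ccl6 over Ccl9. Depth limits the members with under 100 reads in all, Cx3cl1, Cxcl9 and Cxcl2 among those tested.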
